A study of Rattus norvegicus with 5 samples.

Results

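The immunoproteasome and peptide loading genes were 10 genes chosen by name. They were the induced catalytic subunits Psmb8, Psmb9 and Psmb10, the activator subunits Psme1 and Psme2, the transporter subunits Tap1 and Tap2, the loading factor Tapbp (tapasin), the trimming peptidase Erap1 and the transactivator Nlrc5. Matching probes by RefSeq accession found 8 of the 10, with 1 probe each, among 18913 features tested in the series. No probe was matched to Erap1 or Nlrc5, which were not analysed here. The series measured RNA of tumours of C6-L, a rat glioma cell line, grown in BALB/c nu/nu nude mice. The labels give an age of 6 weeks for all samples. Metastatic nodules of the lung (3) and an irradiated primary tumour (1) were taken 6 weeks after γ-irradiation, and a primary tumour that was not irradiated (1) was taken 6 weeks after grafting of the cells. Nothing in the labels ties the nodules to separate animals, so p-values measure the spread between these samples, which may be technical. Nude mice lack a thymus and mature T cells but keep macrophages, B cells and NK cells, and host RNA was read here through rat probes.

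Proteasomes cut cytosolic proteins into peptides. In cells exposed to interferon γ, and constitutively in many leukocytes, Psmb8, Psmb9 and Psmb10 take the places of the standard catalytic subunits Psmb5, Psmb6 and Psmb7. Psme1 and Psme2 form a ring, the PA28 activator, on the ends of the core. The peptides pass into the endoplasmic reticulum through a transporter made of Tap1 and Tap2, which tapasin bridges to class I molecules. Tap2, Psmb8, Tap1 and Psmb9 follow each other in the class II region of the rat major histocompatibility complex.

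Promoter sequence is shown for the genes on which the comparisons below turn, and for Psme1 as the counterpart of Psme2. Each window runs from 250 bases before to 50 bases after the annotated start, 5′ to 3′ on the strand of the gene, from RefSeq on the GRCr8 assembly. Capitals mark matches on either strand to the core of the interferon-stimulated response element (ISRE), which is GAAA, then 2 bases of any kind, then GAAA, and to the gamma-activated site, TTCNNNGAA.
Psmb8 (chr20:4656982-4657281, minus strand): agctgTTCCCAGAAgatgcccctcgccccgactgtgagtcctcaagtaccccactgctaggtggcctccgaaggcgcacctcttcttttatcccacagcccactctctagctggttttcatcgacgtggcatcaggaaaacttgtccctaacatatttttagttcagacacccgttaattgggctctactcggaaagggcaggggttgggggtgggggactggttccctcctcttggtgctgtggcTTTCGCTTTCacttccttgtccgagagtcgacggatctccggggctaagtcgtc
Psmb10 (chr19:50743243-50743542, minus strand): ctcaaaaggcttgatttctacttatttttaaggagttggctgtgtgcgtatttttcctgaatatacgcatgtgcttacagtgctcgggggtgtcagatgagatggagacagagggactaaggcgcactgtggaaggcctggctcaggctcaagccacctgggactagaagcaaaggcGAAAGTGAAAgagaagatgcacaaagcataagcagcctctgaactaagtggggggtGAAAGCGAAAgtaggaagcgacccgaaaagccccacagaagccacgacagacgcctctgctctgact
Psme2 (chr15:33052702-33053001, minus strand): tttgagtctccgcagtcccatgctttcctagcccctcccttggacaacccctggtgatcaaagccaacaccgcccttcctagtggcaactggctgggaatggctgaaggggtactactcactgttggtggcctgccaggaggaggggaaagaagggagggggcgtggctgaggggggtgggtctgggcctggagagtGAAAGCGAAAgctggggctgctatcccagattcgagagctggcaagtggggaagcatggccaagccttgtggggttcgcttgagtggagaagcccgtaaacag
Psme1 (chr15:33038721-33039020, plus strand): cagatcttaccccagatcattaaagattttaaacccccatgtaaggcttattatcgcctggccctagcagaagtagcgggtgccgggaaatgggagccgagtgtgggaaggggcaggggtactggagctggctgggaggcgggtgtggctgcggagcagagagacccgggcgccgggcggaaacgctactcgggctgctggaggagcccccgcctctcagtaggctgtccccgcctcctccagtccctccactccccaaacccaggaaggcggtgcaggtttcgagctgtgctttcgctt
Tap1 (chr20:4668494-4668793, minus strand): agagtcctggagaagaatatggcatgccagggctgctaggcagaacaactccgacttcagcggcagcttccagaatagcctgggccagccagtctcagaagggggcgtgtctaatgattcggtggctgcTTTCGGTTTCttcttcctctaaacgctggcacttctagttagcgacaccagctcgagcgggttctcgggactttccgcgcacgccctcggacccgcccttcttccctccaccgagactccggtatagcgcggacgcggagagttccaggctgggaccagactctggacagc
Tap2 (chr20:4652247-4652546, minus strand): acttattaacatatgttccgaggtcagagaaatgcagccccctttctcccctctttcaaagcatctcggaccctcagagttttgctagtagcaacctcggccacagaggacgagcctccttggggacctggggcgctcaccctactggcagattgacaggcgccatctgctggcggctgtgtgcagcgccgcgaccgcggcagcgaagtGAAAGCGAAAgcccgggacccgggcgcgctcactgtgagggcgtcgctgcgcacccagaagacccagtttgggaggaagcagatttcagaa

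All 8 genes with a probe had such a window. The ISRE core stood in 6 of the 8, those of Psmb8, Psmb10, Psme2, Tap1, Tap2 and Tapbp, while 3.92% of the 33469 windows of the table held it. In Psmb8 it lay on the opposite strand across the start. Psmb10 had 2 matches, beginning 73 and 17 bases before the start, and Tapbp had 2 that overlapped. In Tap1 the match lay on the opposite strand, 121 bases before the start, and read TTTCGGTTTC. The gamma-activated site occurred once, in the window of Psmb8 (TTCCCAGAA, 245 bases before the start), against 8.87% of all windows. The windows of Psmb9 and Psme1 matched neither motif. However, the Psme1 window ends in TTTCGCTT, the beginning of an ISRE core on the opposite strand. A match across that edge could not be seen, so the windows do not show that Psme1 and Psme2 differ in this motif. The Psmb9 window points away from Tap1 and shares 44 bases with that of Tap1. The ISRE core of Tap1 lies between the starts of Tap1 and Psmb9, outside the window of Psmb9. These matches are letters in a window, and no binding was measured.

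**Figure D1:**
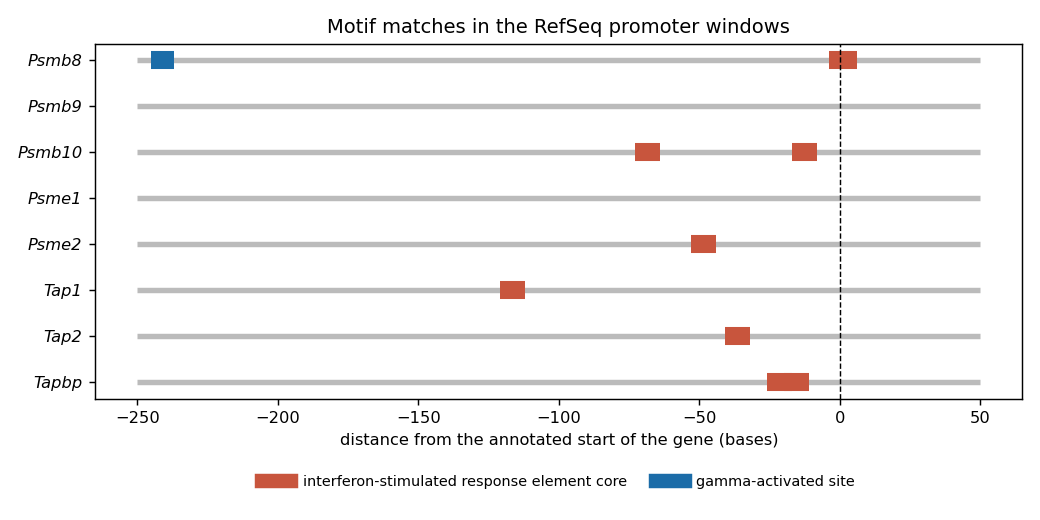
Motif matches in the promoter windows of the 8 genes. The horizontal axis is the distance from the annotated start in bases, grey lines are the windows, red blocks are ISRE cores and the blue block is the gamma-activated site. Of the 8 windows, 6 hold an ISRE core, and those of Psmb9 and Psme1 hold neither motif.

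Levels below are log2 spot signals relative to the 75th percentile of their own array, so 0 is that percentile. On each of the 5 arrays all 8 probes cleared the background flag, with signals from 355 to 34307 units. Each probe had 2 spots an array, except Psme2 with 10, and the SD between spots of a probe within an array was at most 0.141 on the log2 scale. The arrays had 69.8 to 73.5% of their gene spots well above background and 0 saturated spots. Precision is limited by the number of arrays, since a primary is represented once and the spread behind every test comes from the 3 nodules. All arrays share a slide on which the nodules fill a row of their own, so row and group cannot be told apart. In bulk samples such as these, fewer cells of a type and less RNA per cell cannot be told apart. Among the glial markers Gfap was dim on these arrays, whereas Vim, Nes, Sox2, S100b, Olig1 and Fabp7 were well above background on all 5.

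The catalytic subunits differed in how they varied. Psmb8, the induced chymotrypsin-like subunit, stood at 1.56, 1.71 and 1.88 in nodules 1, 2 and 3, at 2.29 in the irradiated primary and at 1.38 in the non-irradiated primary. The nodules thus lay between the primaries without overlap. Their mean was 1.72 ± 0.16 (SD, n = 3), lower than the irradiated primary by a log2 difference of -0.57 (SE 0.16, limma adjusted p = 0.14) and higher than the non-irradiated primary by 0.33 (SE 0.16, adjusted p = 0.211). Neither difference passed the test.

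Psmb9, which replaces the caspase-like subunit, read 2.57, 2.74 and 2.82 in the nodules, 2.85 in the irradiated primary and 2.13 in the non-irradiated primary. All 3 nodules were close under the irradiated primary and clear of the non-irradiated one. The log2 difference was -0.14 (SE 0.14, adjusted p = 0.633) from the irradiated primary and 0.57 (SE 0.14, adjusted p = 0.0567) from the non-irradiated primary, which did not pass the threshold of 0.05. Psmb9 passed there in 1 of 11 other settings, without nodule 1 (adjusted p = 0.00966), where calls over all features also rose.

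Psmb10, which replaces the trypsin-like subunit, ran the other way. Its levels were 3.72, 4.07 and 4.01 in the nodules, 4.09 in the irradiated primary and 4.63 in the non-irradiated primary, the highest of the 5. The nodules averaged 3.93 ± 0.19 (SD, n = 3). They differed by -0.69 (SE 0.17, adjusted p = 0.057) from the non-irradiated primary and by -0.15 (SE 0.17, adjusted p = 0.663) from the irradiated primary. The first of these passed in 3 of 11 other settings: without nodule 1 (adjusted p = 0.0176), with quantile normalization (0.0475) and in the deposited matrix (0.0399). The arrays of that matrix share nearly the same distribution, so it is not separate from quantile normalization. Calls over all features also rose without nodule 1. Of the 3 induced subunits, Psmb10 alone was lower in the irradiated than in the non-irradiated primary, by a log2 difference of -0.54, against 0.90 for Psmb8 and 0.71 for Psmb9. Each primary is a single array, so these differences have no replicate check and no test.

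**Figure D2:**
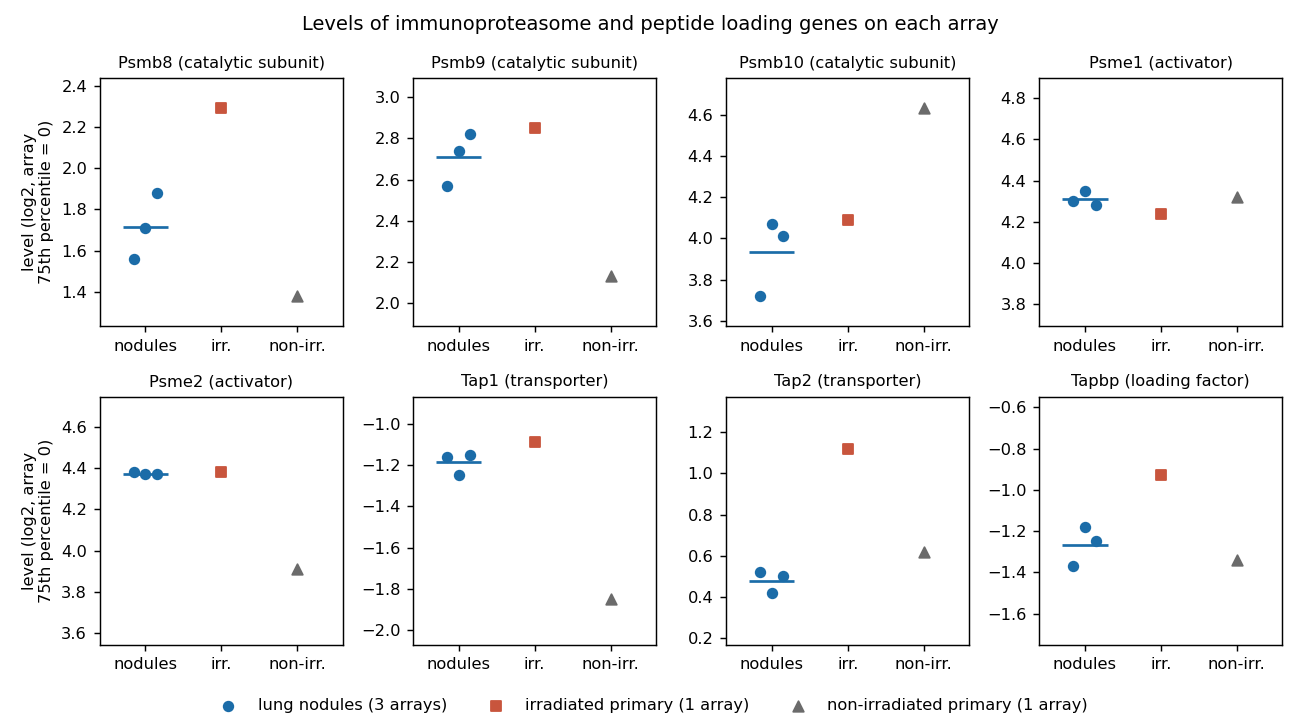
Level of each gene on each array (log2, 75th percentile of the array at 0). Circles are the 3 nodules with their mean as a bar, squares the irradiated primary and triangles the non-irradiated primary, and every panel spans the same height on its own scale. Psmb10 has its highest value in the non-irradiated primary, whereas Psmb8, Psmb9, Psme2 and Tap1 have their lowest value there.

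The 2 activator subunits, which assemble into one ring, did not vary alike. Psme2 stood at 4.38, 4.37 and 4.37 in the nodules, at 4.38 in the irradiated primary and at 3.91 in the non-irradiated primary. The nodules and the irradiated primary were nearly equal, and the non-irradiated primary was apart from them. Psme2 rose by 0.47 in the nodules against the non-irradiated primary (SE 0.11, 1.38-fold, limma adjusted p = 0.0462, higher in 3 of 3 nodules), and differed by -0.01 from the irradiated primary (SE 0.11, adjusted p = 0.967).

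Psme1 read 4.30, 4.35 and 4.28 in the nodules, 4.24 in the irradiated primary and 4.32 in the non-irradiated primary, which lay inside the range of the nodules. Its difference from the non-irradiated primary was -0.01 (95% interval -0.30 to 0.28, adjusted p = 0.958) and from the irradiated primary 0.08 (95% interval -0.21 to 0.36, adjusted p = 0.74). A difference of the size seen for Psme2 lies outside the first of these intervals. The change of Psme2 exceeded that of Psme1 by 0.47 in the nodules against the non-irradiated primary and by 0.56 between the primaries, where the difference between these probes varied by 0.08 over the nodules.

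The transporter subunits also split. Tap1, an ATP-binding subunit of the peptide pump, stood at -1.16, -1.25 and -1.15 in the nodules, at -1.09 in the irradiated primary and at -1.85 in the non-irradiated primary. The nodules lay near the irradiated primary and well above the non-irradiated primary. Tap1 rose by 0.66 in the nodules against the non-irradiated primary (SE 0.15, 1.58-fold, limma adjusted p = 0.0474, higher in 3 of 3 nodules), and differed by -0.10 from the irradiated primary (SE 0.15, adjusted p = 0.757).

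Tap2, the partner of Tap1, read 0.52, 0.42 and 0.50 in the nodules, 1.12 in the irradiated primary and 0.62 in the non-irradiated primary. Here the irradiated primary was the sample apart, and the nodules lay just under the non-irradiated primary. Tap2 had the smallest p of the 8 genes against the irradiated primary, with a log2 difference of -0.65 (SE 0.12, 95% interval -0.97 to -0.32, adjusted p = 0.0704), which did not pass. Tap2 passed in 1 of 11 other settings, without nodule 1 (adjusted p = 0.0181), where calls over all features also rose. From the non-irradiated primary it differed by -0.14 (SE 0.12, adjusted p = 0.453).

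Tapbp stood at -1.37, -1.18 and -1.25 in the nodules, at -0.93 in the irradiated primary and at -1.34 in the non-irradiated primary, within the range of the nodules. Tapasin thus had its highest value in the irradiated primary, as Psmb8, Psmb9, Tap1 and Tap2 did. The log2 difference of the nodules was -0.34 (SE 0.16, adjusted p = 0.306) from the irradiated primary and 0.07 (SE 0.16, adjusted p = 0.773) from the non-irradiated primary.

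Across the 8 genes, 2 rose in the nodules against the non-irradiated primary (Psme2 and Tap1), 0 fell and 6 did not pass, while limma called 18.6% of all features in that comparison, 9.72% higher and 8.85% lower. The share called is thus near the background of the comparison. At an unadjusted p under 0.05 there were 4 of the 8, beside 36.9% of all features. By position, 4 genes (Psmb8, Psmb9, Psme2 and Tap1) had 3 of 3 nodules above the non-irradiated primary, as 40.1% of all features did, and 2 genes (Psmb10 and Tap2) had 3 of 3 below it, as 36.8% did. Over 11 other settings the adjusted p ran from 0.0386 to 0.181 for Psme2, which passed in 6, and from 0.0257 to 0.155 for Tap1, which passed in 5. Both calls were lost without nodule 2 (adjusted p = 0.181 and 0.155) and without nodule 3 (0.0865 and 0.124).

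Against the irradiated primary 0 of the 8 genes passed limma, where 3.72% of all features were called, 0.909% higher and 2.81% lower. At an unadjusted p under 0.05 there were 2 of the 8 (Psmb8 and Tap2) and 22% of all features. All genes but Psme1 had 3 of 3 nodules below the irradiated primary, that is 7 of 8, a position held by 31.8% of all features. Psme1 had 3 of 3 above it, as 36.2% did. The mean difference of Psme2 was -0.01, and its sign turned in 4 other settings. The median difference of the 8 genes was -0.15, beside 0.03 over all features.

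Between the primaries 0 of the 8 genes reached a 2-fold difference, which 16.4% of 18442 features did, 9.3% higher and 7.13% lower in the irradiated primary. The irradiated primary was higher for 6 genes, with folds from 1.33 for Tapbp and 1.39 for Psme2 to 1.69 for Tap1 and 1.87 for Psmb8, and lower for Psmb10 (0.689-fold) and Psme1 (0.943-fold). The median was 0.49 on the log2 scale, beside 0.02 over all features. For all 8 genes the difference between the primaries was larger than the range over the 3 nodules, as for 55.5% of all features. The margin was smallest for Psme1, with 0.08 against 0.07. Between nodules 0 of the 8 genes reached 2-fold either, which 5.21% of features did between nodules 1 and 2, 7.04% between nodules 1 and 3 and 2.26% between nodules 2 and 3. The 2 comparisons of the nodules share the nodule arrays, and each primary enters 2 of the 3 comparisons, so the values of a gene in them are not independent.

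**Figure D3:**
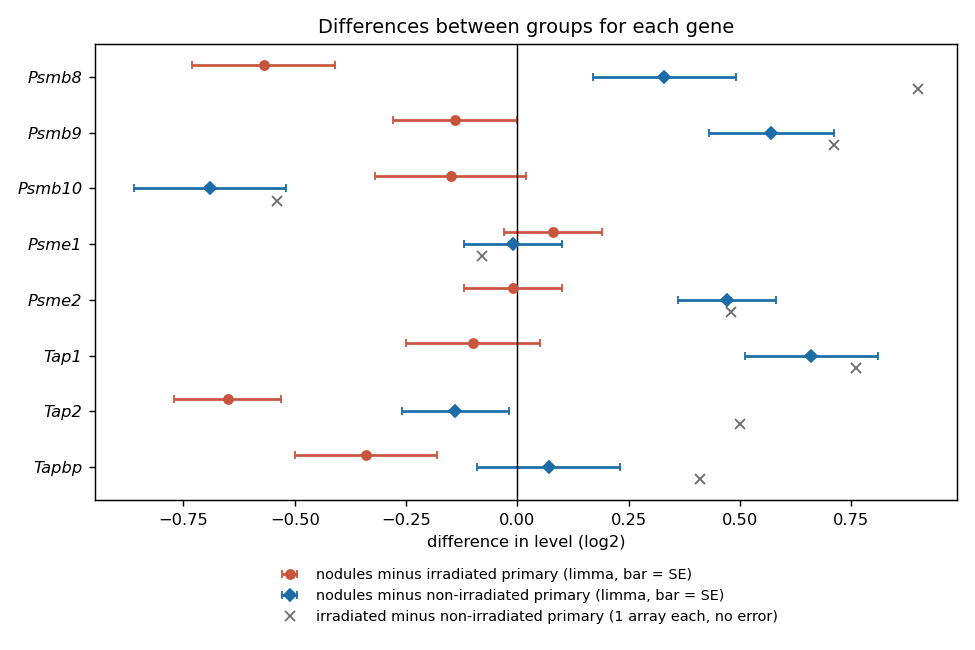
Differences in level of the 8 genes on the log2 scale. Red circles are nodules minus irradiated primary and blue diamonds nodules minus non-irradiated primary, with SE bars from limma, and grey crosses are irradiated minus non-irradiated primary with 1 array each and no error. Against the irradiated primary the lowest values belong to Tap2 (-0.65) and Psmb8 (-0.57), and against the non-irradiated primary the highest belong to Tap1 (0.66) and Psmb9 (0.57) and the lowest to Psmb10 (-0.69).

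The standard catalytic subunits, which the induced ones displace, gave a different picture for each position of the core. Psmb5, the standard chymotrypsin-like subunit, stood at 4.25, 4.03 and 4.12 in the nodules, at 3.67 in the irradiated primary and at 3.94 in the non-irradiated primary, so that the irradiated primary was lowest where it was highest for Psmb8. The log2 difference of the nodules from the irradiated primary was 0.46 for Psmb5 (adjusted p = 0.147). Set against Psmb5, Psmb8 changed by -1.03 in the nodules relative to the irradiated primary and by 0.13 relative to the non-irradiated primary, and by 1.17 in the irradiated relative to the non-irradiated primary, where this difference varied by 0.45 over the nodules. Psmb9 set against Psmb6 changed by 0.07 in the nodules relative to the irradiated primary, by 1.06 relative to the non-irradiated primary and by 1.00 between the primaries, with a range of 0.02 over the nodules. Psmb10 set against Psmb7 changed by -0.07, -0.70 and -0.63 in the same order. A change in such a ratio shows that the genes changed unequally and not which of them moved, and none of these ratios was tested.

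The other genes of the pathway were taken from 7 lists. Of 79 genes listed, 70 were tested, 4 had no matched probe, and 5 were dim, among them the cytokine gene Ifng and the class II transactivator Ciita. Against the irradiated primary 0 of the 70 passed limma, beside the 3.72% of all features. Against the non-irradiated primary 11 passed, 4 higher and 7 lower, beside the 18.6% of all features. These calls rest on the set of nodules: 28 passed without nodule 1, 0 without nodule 2 and 1 without nodule 3.

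Constitutive proteasome genes showed small differences. Of 14 constitutive subunits of the core, 0 passed in either comparison, with a median of -0.12 against the irradiated and -0.26 against the non-irradiated primary. Of 17 subunits of the 19S regulator, which unfolds substrates, 2 fell against the non-irradiated primary, Psmd12 by 0.57 (adjusted p = 0.043) and Psmc5 by 0.47 (adjusted p = 0.047), 0 rose and 15 did not pass (median -0.38). Between the primaries the medians of these lists were -0.16 and -0.15, while the 8 immunoproteasome and loading genes had 0.49. That median was not particular to the 8 genes. The list of other loading factors had 0.50 and that of other antigen peptidases 0.53. Interferon γ signalling genes had 0.20, other activators and assembly factors -0.12, and class II genes -1.33. Among 6 other activators, inhibitors and assembly factors, the assembly chaperone Psmg4 fell by 1.10 against the non-irradiated primary (SE 0.12, adjusted p = 0.0133) and Psme4, the PA200 activator, fell by 0.77 (adjusted p = 0.0306). A second probe of Psmg4 gave -1.11, but a second probe of Psme4 gave 0.60, so the direction for Psme4 hangs on the probe. Psme3, the nuclear relative of Psme1 and Psme2, had a difference of -0.29 (adjusted p = 0.24) and Pomp, which assembles new cores, one of -0.07 (adjusted p = 0.857).

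In the loading list B2m, the light chain of class I molecules, differed from Tap1 in the position of the nodules. B2m stood at 3.65, 3.38 and 2.99 in the nodules, at 4.23 in the irradiated primary and at 4.55 in the non-irradiated primary. All 3 nodules were thus under both primaries, as for Tap2 but not for Tap1. B2m fell by 1.21 against the non-irradiated primary (SE 0.27, adjusted p = 0.0437) and had a difference of -0.89 from the irradiated primary (adjusted p = 0.159). Sec61a1, a channel subunit of the endoplasmic reticulum, fell by 1.34 against the non-irradiated primary (adjusted p = 0.0149), although its spots on an array differed with an SD of up to 1.37, and 6 of these 8 genes did not pass. Against the irradiated primary the median of the list was -0.37, and 0 passed. In 7 of 8 genes all nodules lay below that tumour, as for 31.8% of all features. Of 6 other peptidases of antigen processing, the thimet oligopeptidase Thop1, which degrades peptides in the cytosol, rose by 1.14 against the non-irradiated primary (SE 0.14, adjusted p = 0.0157), 0 fell and 5 did not pass (median 0.49).

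Among 13 tested interferon γ signalling genes, 3 rose, 1 fell and 9 did not pass against the non-irradiated primary, and 0 passed against the irradiated primary. Irf9, a DNA-binding factor of type I interferon signalling, rose by 1.00 (adjusted p = 0.0298), and Rfxank, a subunit of the RFX factor at class I and class II promoters, by 1.12 (adjusted p = 0.0413), both against the non-irradiated primary. The receptor chain Ifngr1 fell by 0.72 (adjusted p = 0.0242) in the same comparison. Irf1, which binds ISRE sequences, had a difference of -0.14 from the non-irradiated primary (adjusted p = 0.462), and a second probe gave 0.28. The 6 tested genes of class II presentation, most of them neighbours of the Tap genes, had a median of -1.18 against the non-irradiated primary, and 0 passed. In 6 of 6 all nodules lay under that tumour, as for 36.8% of all features. Of the 4 adjacent genes of antigen processing, Tap2 had all nodules under it too, and Tap1, Psmb8 and Psmb9 had all nodules above it.

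**Figure D4:**
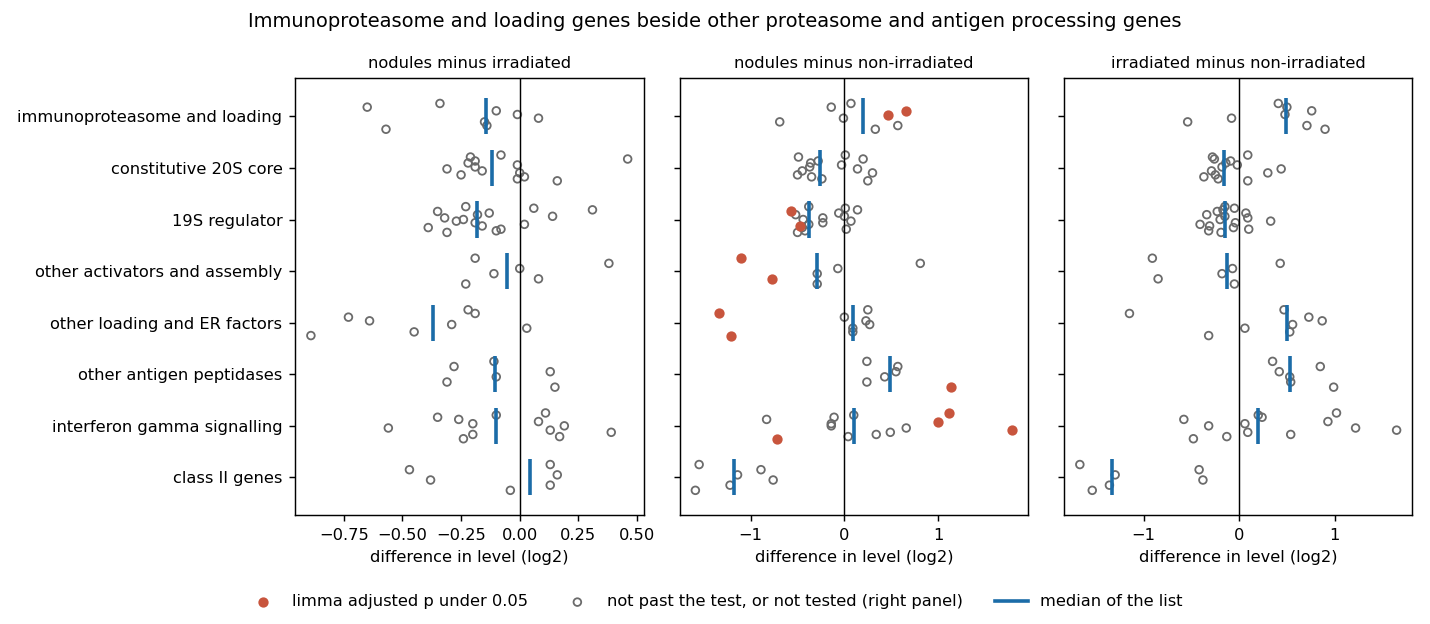
Log2 differences of the 8 genes and of the 7 pathway lists in the 3 comparisons, with 1 point a gene and a blue bar at the median of each list. Filled red points passed limma at an adjusted p under 0.05, and open points did not pass or, in the right panel with 1 array a group, were not tested. In the left panel 0 genes passed, and in the middle panel 2 of the 8 genes and 11 of the 70 list genes did.

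Markers of other cells moved with some of these values and against others. The summed level of 10 of 11 macrophage markers, on a linear scale with the 75th percentile at 1, was 44.4 to 50.6 in the nodules, 53.9 in the irradiated primary and 25.1 in the non-irradiated primary. Most of this sum came from C1qa and C1qb, subunits of complement C1q, with 39 to 44 in the nodules, 47.9 in the irradiated and 19.9 in the non-irradiated primary. The other 8 markers summed to 5.26 to 6.59 in the nodules, 6.05 in the irradiated and 5.17 in the non-irradiated primary. Of the 10, 5 rose in the nodules against the non-irradiated primary (C1qa, C1qb, Csf1r, Aif1 and Adgre1) and 2 fell (Cd68 and Cd163). Over all features 9.72% were called higher and 8.85% lower in that comparison. The 5 general leukocyte markers summed to 18.6 to 26.1 in the nodules, 21.4 in the irradiated and 15.7 in the non-irradiated primary, mostly from Laptm5, and 0 passed. Among them Lcp1 had its highest value in the non-irradiated primary, unlike the other 4. The dendritic cell marker Cd83 (adjusted p = 0.00761) and the B cell marker Cd79b (adjusted p = 0.0445) were called higher in the nodules against the non-irradiated primary. Neither was well above background in that primary. Cd79b was well above background in the nodules only and entered the tests through them, so its direction was set by that entry. Clec9a, another dendritic cell marker, was well above background only in the non-irradiated primary and entered the tests through it. Its difference of -2.32 is therefore not read as a call. Ccr7, also of that list, differed by -1.70 (adjusted p = 0.0692). Of 6 tested glioma and glial markers, Nes fell by 2.43 against the non-irradiated primary (adjusted p = 0.0364), 0 rose and 5 did not pass. Vim alone had a higher mean in the nodules, by 0.91 (adjusted p = 0.119). Of 8 T cell markers, 5 were dim (Cd3e, Cd4, Cd5, Cd8a and Cd8b), and Cd2 and Cd3g were above background in 0 nodules. Cd3d was well above background on all 5 arrays. Cd2 was well above background only in the irradiated primary and entered the tests through it. Its log2 difference of -3.88 from that primary is therefore not read as a call. Skeletal muscle markers summed to 1.09 to 1.38 in the nodules, 56.5 in the irradiated primary and 10.7 in the non-irradiated primary. Of the 4, limma called 4 lower against the irradiated and 3 lower against the non-irradiated primary. Over all features 2.81% and 8.85% were called lower in these comparisons. Myh4 was well above background in 0 nodules and entered the tests through the primaries alone, so its direction was set by that entry. The part of these cells in the values of the 8 genes was not tested.

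Likeness was measured as the root mean square difference of centred levels over the 5 arrays, among 11096 named genes. Psmb10 had the widest range of the 8 genes (0.904), and the nearest genes to it were Crtap (0.0388), Tbcc (0.0389), Rab3d (0.0415), Ndufa4 (0.0419) and Alkbh6 (0.0442). Psmb8 had almost the same range (0.903) and was added after its values were seen. Its nearest genes were Hdac8 (0.06), B4galt1 (0.0627), Copg1 (0.0723), Nup43 (0.0739) and Xrcc1 (0.08). Hdac8, for instance, stood at -3.12, -3.06 and -2.95 in the nodules, at -2.48 in the irradiated primary and at -3.28 in the non-irradiated primary, the same order of samples as Psmb8. No gene of the 7 pathway lists was among these 10. Those lists made up 70 of the 11096 genes searched, so their absence says little.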

How the data were processed

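RNA of 5 samples was measured on 1-colour (Cy3) Agilent arrays, 1 array a sample. The deposited intensity values are spot signals from Agilent Feature Extraction 11.0 per the submitters' processing notes, background-subtracted and detrended within each array per the file headers, and they were left unscaled from array to array. Other deposited values are spot flags of 0 or 1, named in the headers. The authors also deposited a matrix of log2 values for 18502 probes, which served as an alternative and whose making is not given in the sources used here. Its arrays share nearly the same distribution, as after quantile normalization (largest difference between sorted columns 0.000749). It therefore does not count as a setting separate from quantile normalization.

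Outlier and control spots were left out, spots of a probe were averaged as log2 signal, and each array was scaled to its 75th percentile. Probes were named through RefSeq accessions (18354 of 30363), and a gene was represented by its brightest probe. Features entered the tests when well above background, in over 0.5 of their spots, on all arrays of at least 1 group. limma 3.58.1 in R 4.3.3 fitted 3 group means with an intensity trend over all 18913 features, with Benjamini-Hochberg adjustment and a threshold of 0.05. The lone primaries were assumed to share the spread of the nodules. Intervals of 95% use the moderated 4.76 degrees of freedom. The fit was tested on simulated data. Normexp used median spot signals. Coordinates are given for promoter windows only, since the arrays were designed on another rat assembly.

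The genes, lists and motifs were chosen with earlier results of these data known. The text names all 8 genes with a probe, fixed reference genes of the lists and, per list, up to 3 called genes each way, except 1 that is not reported here.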

Additional observations from a re-analysis of the deposited data

How the results depend on the processing

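No paired analysis was possible because each primary group has 1 array. Over 11 other settings, 154 of 176 gene results kept their direction and their side of the threshold. Between the primaries, the counts of genes past 2-fold stayed at 0 wherever they could be recomputed. The number of the 8 genes called higher against the non-irradiated primary, 2 as reported, was 0 with median scaling, every probe kept or no intensity trend, 1 with quantile normalization, and 0 to 3 with 1 nodule left out. The number called lower there, 0 as reported, was 1 (Psmb10) with quantile normalization and with the deposited matrix, and 0 to 1 with 1 nodule left out. Against the irradiated primary 0 to 1 was called lower with 1 nodule left out. Of the pathway list genes, 0 as reported and 1 with normexp were called against the irradiated primary (0 to 2 with 1 nodule left out). Against the non-irradiated primary 11 were called as reported, 7 with median scaling, 5 without an intensity trend and 0 to 28 with 1 nodule left out. Over all features limma called 704 against the irradiated primary, 438 with median scaling, 399 without an intensity trend and 0 to 3187 with 1 nodule left out. Against the non-irradiated primary it called 3512, and 0 to 6406 with 1 nodule left out. The highest of these counts over all features came without nodule 1 and the counts of 0 without nodule 2, where 2690 and 4987 features had an unadjusted p under 0.05. The sign of Psme2 against the irradiated primary, -0.01 as reported, turned with median scaling (0.08), quantile normalization (0.01), normexp (0.02) and the deposited matrix (0.01). That of Psme1 against the non-irradiated primary, -0.01 as reported, was 0.00 with median scaling and ran from -0.03 to 0.01 with 1 nodule left out. The cause was not tested. Psmb8, Psmb9, Psmb10, Tap1, Tap2 and Tapbp kept their direction in all 11 settings.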

Other observations

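The 3 induced catalytic subunits had their lowest nodule value in nodule 1, with 1.56 for Psmb8, 2.57 for Psmb9 and 3.72 for Psmb10 on the log2 scale. Nodule 1 also had the highest summed level of 4 lung epithelial markers, 43.4, against 14.3 in nodule 2 and 0.234 in nodule 3, and the highest sum of 3 endothelial markers, 3.77, against 2.04 and 1.25. The standard subunit Psmb5 was highest in nodule 1, at 4.25, against 4.03 and 4.12. The standard subunits Psmb6 and Psmb7 were instead lowest in nodule 1, as the induced subunits were. Psmb6 stood at 1.49, against 1.63 and 1.73, and Psmb7 at 1.75, against 1.83 and 2.04. Psme2, Tap1 and Tap2 varied over the nodules by 0.01, 0.10 and 0.10, and all features had a median range of 0.31. These small ranges depended on the scaling: with median scaling those of the 3 genes were 0.17, 0.20 and 0.18. Whether lung tissue has a part in the levels of the catalytic subunits was not tested.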
